A study of Mus musculus with 23 samples.

Results

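The genes of glycolysis and of pyruvate metabolism were followed through 4 mouse pluripotent cell states and fibroblasts. The list held 36 genes, of which 27 had a named probe in the platform annotation, out of 11494 genes named in the whole series. Older synonyms were allowed, and a gene was read from its probe with the brightest mean signal. Named probes covered 3 of 4 glucose and lactate carriers, 14 of 17 enzymes of the pathway, 3 of 6 enzymes that set its pace from the side and 7 of 8 genes of the pyruvate and lactate branch. Hk2, Gpi1, Eno1, Pfkfb1, Pfkfb3, Fbp1, Slc16a1, Pdk2 and G6pdx, the entry enzyme of the pentose phosphate pathway, were not analysed here.

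Transcript levels of 22 pluripotent cultures and 1 culture of mouse embryonic fibroblasts (MEFs) were read on Illumina BeadChips, which carry a bead-bound probe for each transcript, with 1 array per line and state. Embryonic stem cells that had reverted from epiblast stem cells (rESCs) came from the Blimp1-null (-/-) lines J2.3, BL2 and BL6 and the heterozygous (+/-) lines BL3 and BL7, and were kept on feeders with LIF and fetal calf serum. Epiblast stem cells (epiSCs) came from the null lines BL2 and BL6 and the heterozygous lines BL3, BL4 and BL7, and grew on MEF feeders with activin A, bFGF and knockout serum replacement. Embryonic stem cells (ESCs) came from the null lines JAG1, JAG2 and B12 and the heterozygous lines PAN1, PUM3 and CHE4. These 6 lines were each profiled in 2i/LIF, which is N2B27 medium with the MEK inhibitor PD0325901, the GSK3 inhibitor CHIR99021 and LIF, and in serum with LIF, and whether the serum cultures held feeders at harvest is not given in the sources used here. Every pluripotent line carried at least 1 mutant Blimp1 allele, the heterozygous controls included, on a C57Bl6/CBA/129 background. The MEFs were wild type, and their label gives the same background, whereas the methods name MF1 fetuses for the MEFs used. Blimp1 is a transcriptional repressor needed to specify primordial germ cells. With 1 array for a line in a state, p-values measure only the spread between these lines, and it is the number of arrays that limits precision.

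Glycolysis splits glucose into pyruvate in the cytosol. Glucose enters through carriers of the Slc2a family, hexokinase traps it, phosphofructokinase 1 commits it, and aldolase, triosephosphate isomerase and the enzymes down to pyruvate kinase harvest ATP and NADH. Pyruvate is then either reduced to lactate by lactate dehydrogenase or turned into acetyl-CoA in mitochondria by the pyruvate dehydrogenase complex, which pyruvate dehydrogenase kinases switch off. In mouse pluripotent cells, epiSCs are known to lean on glycolysis, while ESCs also respire. Many of the genes are known targets of hypoxia-inducible factor (HIF) and of Myc.

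Between 12197 and 14599 probes were detected per array at a detection p under 0.01, and the median signal ran between 68.9 and 107. No 2 arrays held identical signals. Pou5f1 reached log2 levels of 10.12 to 11.85 on all pluripotent arrays and 4.88 in MEFs, where it was not detected. Esrrb, a naive pluripotency gene, had levels of 11.10 to 12.37 in rESCs, but in epiSCs it was 10.73 in line BL6 against 4.85 to 7.52 in the other 4 lines, so that this epiSC array stood apart. The rESC array of J2.3 had the highest Xist (6.61) and Fgf5 (6.05) levels among rESCs and the highest median over 24 fibroblast genes (7.39). The calls and larger changes in which these arrays enter are also given without them, a choice made after the data were seen. All levels below are normalized log2 intensities, comparable between arrays for 1 probe but not between probes, and fewer cells of a type cannot be told apart from less RNA per cell in such bulk samples.

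Of the 27 genes, 17 were detected on all 23 arrays, 18 on all 22 pluripotent arrays and 9 on some of the pluripotent arrays only. Among the 18, the mean level peaked in epiSCs for 9 genes and in each of the other 3 states for 3 genes. The mean was lowest in 2i/LIF for 8 genes, in epiSCs for 6, in ESCs in serum for 4 and in rESCs for 0. State means differed most for Pdk1, by 3.47 on the log2 scale, followed by Fbp2 (2.97), Eno3 (2.59), Pfkp (2.44) and Aldoc (2.07). They differed least, among genes detected on all 22 arrays, for Slc2a3, by 0.34, where the SD within states was 0.31. Slc16a3, a lactate exporter known from glycolytic muscle, was detected on 1 of the 22 arrays, and Ldhb, the heart-type lactate dehydrogenase, on 3, all of them rESCs.

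**Figure D1:**
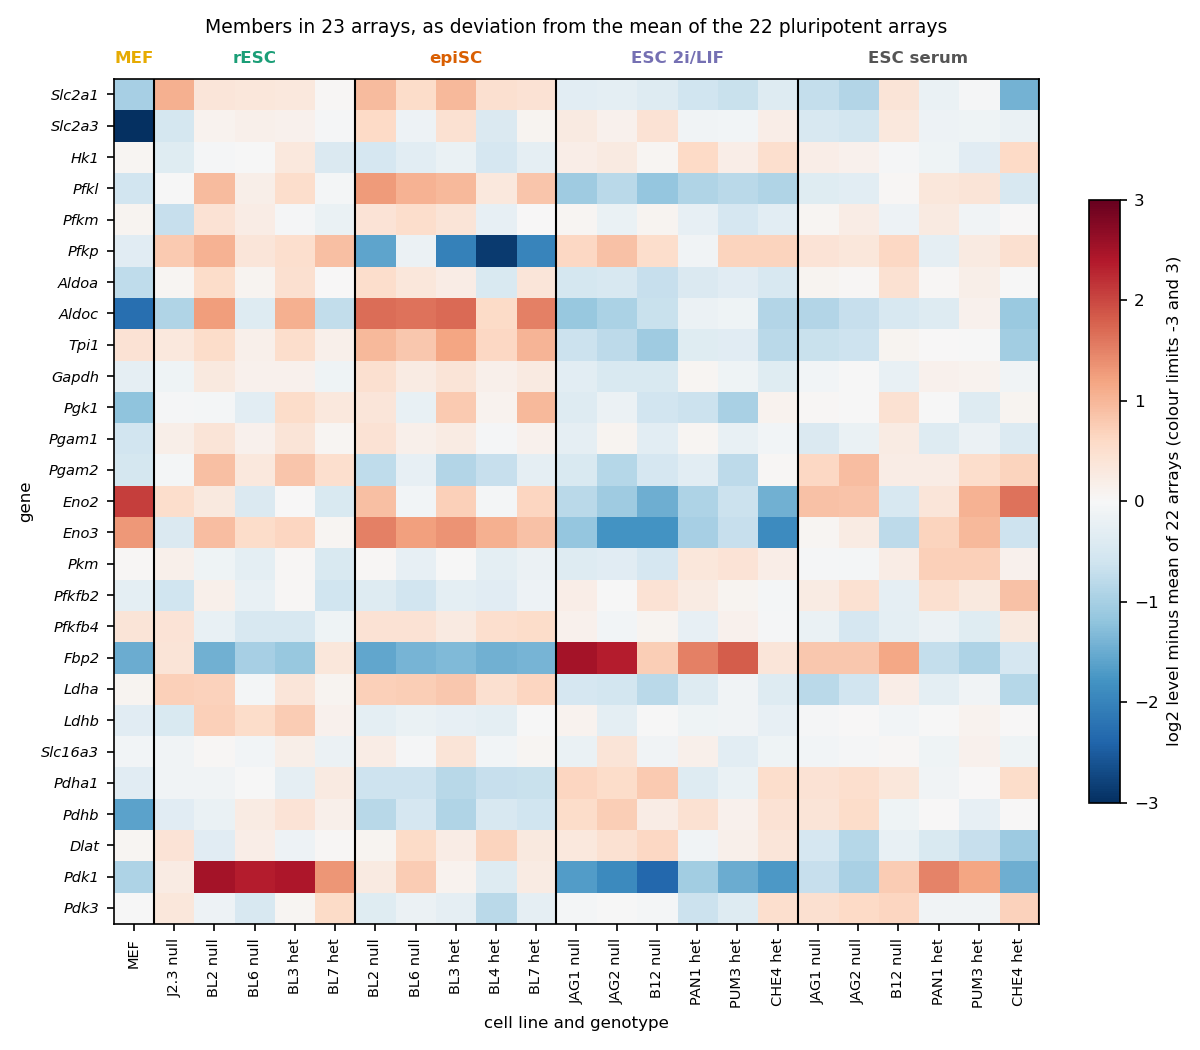
The 27 genes (rows) in the 23 arrays (columns, by state, line and genotype), coloured by log2 level minus the gene's mean over the 22 pluripotent arrays, with colours limited to -3 and 3. Pdk1 is highest in the BL2, BL3 and BL6 rESC arrays (9.92, 9.85 and 9.78), Pfkp is lowest in the epiSC arrays other than BL6, epiSCs are red for Aldoc and Eno3, and 2i/LIF arrays are blue for Pdk1, Eno2 and Eno3 and red for Fbp2.

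Promoters of 4 genes are shown because these genes moved most or in different states: Pdk1, the kinase that gates pyruvate, Pfkp, a phosphofructokinase, Ldha, the main lactate dehydrogenase, and Fbp2, which runs the phosphofructokinase step backwards. Each sequence is 5′ to 3′ on the gene's strand, from 250 bases before to 50 bases after the most upstream start that the RefSeq promoter table for GRCm38.p6 lists. The RefSeq gene span reaches further upstream than this start by 9 bases for Pdk1, 289 for Pfkp and 3530 for Ldha, so these windows need not hold the outermost start. They lie at chr2:71872974-71873273 (plus strand), chr13:6648722-6649021 (minus strand), chr7:46845554-46845853 (plus strand) and chr13:62858351-62858650 (minus strand). Capitals mark the core of the HIF element, ACGTG or GCGTG on either strand, and a CACGTG E-box, the site that Myc binds, is a special case that holds the core on both strands.
Pdk1: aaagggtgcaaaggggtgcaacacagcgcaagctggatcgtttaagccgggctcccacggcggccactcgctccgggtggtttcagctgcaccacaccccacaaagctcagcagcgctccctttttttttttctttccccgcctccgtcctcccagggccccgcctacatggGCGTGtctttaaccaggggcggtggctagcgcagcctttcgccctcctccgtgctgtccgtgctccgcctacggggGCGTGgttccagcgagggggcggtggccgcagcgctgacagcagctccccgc
Pfkp: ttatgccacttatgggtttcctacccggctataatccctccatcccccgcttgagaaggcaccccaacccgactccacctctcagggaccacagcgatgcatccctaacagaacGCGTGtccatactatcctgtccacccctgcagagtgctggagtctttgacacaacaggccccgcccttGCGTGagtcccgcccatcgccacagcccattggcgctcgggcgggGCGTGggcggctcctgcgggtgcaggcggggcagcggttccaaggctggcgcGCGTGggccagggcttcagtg
Ldha: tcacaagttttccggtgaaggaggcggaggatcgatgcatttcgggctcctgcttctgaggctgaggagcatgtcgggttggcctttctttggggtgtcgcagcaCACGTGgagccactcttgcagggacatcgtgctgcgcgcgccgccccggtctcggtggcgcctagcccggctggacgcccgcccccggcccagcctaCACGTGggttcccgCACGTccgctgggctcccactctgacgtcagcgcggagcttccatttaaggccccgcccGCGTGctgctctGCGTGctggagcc
Fbp2: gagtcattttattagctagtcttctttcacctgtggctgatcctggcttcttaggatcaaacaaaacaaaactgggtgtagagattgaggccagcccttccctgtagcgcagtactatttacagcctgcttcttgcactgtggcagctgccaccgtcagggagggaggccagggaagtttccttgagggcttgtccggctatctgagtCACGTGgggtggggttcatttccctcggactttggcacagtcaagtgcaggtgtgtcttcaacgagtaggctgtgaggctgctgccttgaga
The core stood in 5 separate or merged stretches in the Ldha window, 4 in that of Pfkp, 2 in that of Pdk1 and 1 in that of Fbp2. Of the 26 genes with a window, 19 held it (73.1%), against 43.8% of the windows of 27025 genes. CACGTG was present in 3 of the 26 (Pfkm, Fbp2 and Ldha), or 11.5%, against 7.24% of all. TNAAGGTCA, the Esrrb element, was found in 1 of 26 (Tpi1), or 3.85%, against 1.24%. These matches are letters in a window and not measured binding.

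rESCs were compared with epiSCs to ask how the genes differ once cells have reverted. Of 23 genes tested, 5 rose in rESCs and 1 fell, at an adjusted p under 0.01. These were the phosphofructokinase Pfkp, the mutase Pgam2, the pyruvate dehydrogenase subunits Pdha1 and Pdhb and their kinase Pdk1, which rose, and Tpi1, triosephosphate isomerase, which fell. In all, 23.2% of 13418 probes passed (10.6% higher and 12.5% lower), so the share among the genes, 26.1%, was near that of all probes. The median change over the 23 genes was -0.25 on the log2 scale, against 0.00 over all probes tested. Hk1, Fbp2, Ldhb and Slc16a3 were detected on too few arrays to be tested here.

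Pfkp, the platelet-type isoform of phosphofructokinase 1, had the largest change. Its levels in the rESC lines J2.3, BL2, BL6, BL3 and BL7 were 9.55, 9.83, 9.13, 9.29 and 9.68, against 7.21, 8.59, 6.76, 5.91 and 6.79 in the epiSC lines BL2, BL6, BL3, BL4 and BL7. The groups did not overlap, and the epiSC array closest to the rESCs was BL6, the one with high Esrrb. The difference was 2.42 on the log2 scale (SE 0.39, adjusted p = 0.000609), or 5.34-fold. Without the BL6 epiSC and J2.3 rESC arrays it was 2.79. Within line, rESCs exceeded epiSCs by 2.58 in BL2, 2.51 in BL3, 2.86 in BL7 and 0.53 in BL6. A second Pfkp probe changed by 2.13 (adjusted p = 0.000988). The other isoforms did not pass: Pfkl, the liver type, changed by -0.55 (adjusted p = 0.0697) and Pfkm, the muscle type, by -0.26 (0.374).

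Pdk1 phosphorylates and switches off the pyruvate dehydrogenase complex. Its levels were 7.66, 9.92, 9.78, 9.85 and 8.75 in rESC lines J2.3, BL2, BL6, BL3 and BL7, against 7.69, 8.17, 7.53, 7.04 and 7.66 in epiSC lines BL2, BL6, BL3, BL4 and BL7. Only the J2.3 rESC array lay within the epiSC range. The difference was 1.55 (SE 0.40, adjusted p = 0.00991), just under the threshold, and 2.06 (adjusted p = 0.000167) without J2.3 rESCs and BL6 epiSCs. All 4 lines profiled in both states were higher as rESCs, by 1.07 to 2.28.

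Pgam2, the muscle-type phosphoglycerate mutase, was a dim probe, detected on 5 of 5 rESC arrays and on 1 of 5 epiSC arrays. It had 5.19, 6.14, 5.56, 6.08 and 5.74 in rESC lines J2.3, BL2, BL6, BL3 and BL7, against 4.48, 4.99, 4.36, 4.56 and 4.98 in epiSC lines BL2, BL6, BL3, BL4 and BL7. The groups did not overlap, with a difference of 1.12 (SE 0.21, adjusted p = 0.00159), or 1.40 without J2.3 rESCs and BL6 epiSCs. Pgam1, the widely used mutase, changed by 0.04 (adjusted p = 0.83).

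The subunits of pyruvate dehydrogenase did not move together. Pdha1, the X-linked E1 alpha subunit, had 10.61, 10.60, 10.70, 10.46 and 10.97 in rESC lines J2.3, BL2, BL6, BL3 and BL7, against 10.10, 10.09, 9.88, 10.03 and 10.05 in epiSC lines BL2, BL6, BL3, BL4 and BL7 (0.62, SE 0.12, adjusted p = 0.00198). Pdhb, the E1 beta subunit, was 0.69 higher (SE 0.16, adjusted p = 0.00596), with no overlap between states, while its 2 dimmer probes changed by 0.53 (0.138) and 0.33 (0.507). Dlat, the E2 core subunit, changed by -0.34 (adjusted p = 0.142). Without J2.3 rESCs and BL6 epiSCs the changes were 0.65 for Pdha1 and 0.83 for Pdhb. Tpi1 fell by 0.58 (SE 0.14, adjusted p = 0.00824; without these arrays 0.0142), with levels of 11.89 to 12.31 in rESCs and 12.36 to 12.94 in epiSCs.

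In all, 5 of the 23 genes had groups that did not overlap, against 25.5% of all probes. Fitted with the cell line as a block, the 4 lines present in both states gave 7 calls, and the share of all probes in this fit is not given here. Eno3, the muscle enolase (-0.69, adjusted p = 0.00583), and Pfkfb4 (-0.77, 0.00447) were gained, and Pdha1 missed the threshold (0.64, 0.0106). Pfkfb4, whose product sets the level of fructose 2,6-bisphosphate, the activator of phosphofructokinase 1, was lower as rESC in all 4 lines. In all, 11 of the 23 genes were lower as rESC in all 4 lines and 5 were higher. The shares of all probes were 26.7% and 25.7%. Tpi1 and Pdk1 each lost their calls in 13 of 22 alternative settings and Pdhb in 9, always with the same sign. Of the 24 named fibroblast genes, 5 of 18 tested were higher in rESCs and 0 lower, and the array medians over the list were 5.98 to 7.39 in rESCs and 5.61 to 6.84 in epiSCs. Among their defining genes, Acta2 was 10.51 to 12.43 in rESCs and 10.16 to 11.06 in epiSCs, Col1a1 was detected on 5 of 5 rESC and 4 of 5 epiSC arrays, and Col1a2 on 0 of 5 in each. Their part in these changes was not tested.

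**Figure D2:**
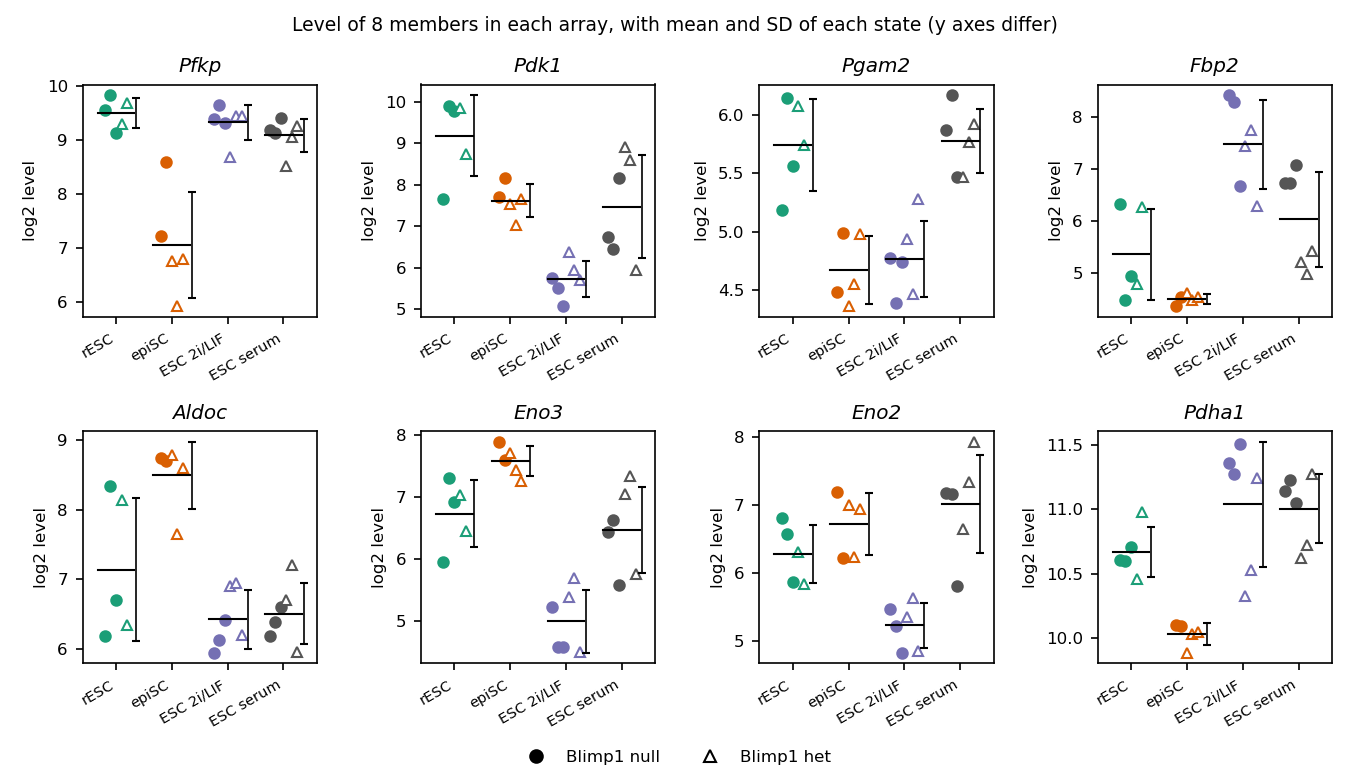
Normalized log2 level of 8 genes in each array (filled circles null, open triangles heterozygous lines), by state, with the mean as a line and the SD as a bar (n = 5 rESC, 5 epiSC, 6 ESC 2i/LIF and 6 ESC serum); y axes differ. Pfkp and Pdha1 are lowest in epiSCs, Aldoc and Eno3 highest there, and Fbp2 is highest in 2i/LIF.

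ESCs in 2i/LIF were compared with the same lines in serum. Of 25 genes tested, 1 rose in 2i/LIF and 6 fell. The enolases Eno2 and Eno3, the mutase Pgam2, the aldolase Aldoa, the phosphofructokinase Pfkl and the kinase Pdk1 fell, and Dlat, the E2 subunit of pyruvate dehydrogenase, rose. Of 13274 probes, 31.1% passed (15.7% higher and 15.4% lower), against 28% of the genes. The median change was -0.20 over the 25 genes and 0.03 over all probes. Ldhb and Slc16a3 were detected on 0 of 12 arrays and not tested.

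Eno2, the neuron-type enolase, had 4.83, 5.29 and 5.64 as its lowest, median and highest levels in 2i/LIF, against 5.81, 7.17 and 7.93 in serum. The media did not overlap, and 2 of the 2i/LIF arrays did not detect the gene. The change was -1.76 (SE 0.28, adjusted p = 0.000227), with differences of -0.96 in B12 to -3.04 in CHE4. Eno3 ranged over 4.50, 4.90 and 5.70 in 2i/LIF, where 3 of 6 arrays detected it, against 5.58, 6.53 and 7.34 in serum (-1.45, SE 0.30, adjusted p = 0.00155), and it was lower in 6 of 6 lines. Both are isozymes known from excitable tissue, and Eno1, the main enolase of most cells, was not analysed here.

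Pdk1 had 5.06, 5.72 and 6.38 as its lowest, median and highest levels in 2i/LIF, against 5.95, 7.46 and 8.91 in serum. The ranges overlapped, because the serum cultures were themselves divided. In serum, PAN1, PUM3 and B12 had 8.91, 8.61 and 8.17, while CHE4, JAG1 and JAG2 had 5.95, 6.74 and 6.45. The change was -1.75 (SE 0.46, adjusted p = 0.00716), and by line it was -3.10 in B12, -2.69 in PUM3 and -2.55 in PAN1, but -0.99 in JAG1, -0.93 in JAG2 and -0.24 in CHE4. All 6 lines had less Pdk1 in 2i/LIF. The larger drop in the 3 lines with the higher serum levels restates those levels, as the 2i/LIF levels lay closer together. The call was lost in 11 of 22 alternative settings, among them those without the serum array of PAN1, PUM3 or B12.

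PAN1, PUM3 and B12 were the 3 highest serum arrays for 8 of the 25 genes tested and the 3 lowest for 4, against 15.9% and 12.5% of 13274 probes, an observation made after the values were seen. The 8 included Pdk1, by whose serum levels the 3 lines were set apart. The others of the 8 were Slc2a1, Slc2a3, Pfkl, Aldoc, Tpi1, Pkm and Ldha, and the 4 were Hk1, Pgam2, Pdha1 and Pdhb. Slc2a1, the glucose carrier of most dividing cells, had 11.25, 11.40 and 11.83 in PAN1, PUM3 and B12, against 10.02, 10.73 and 10.56 in CHE4, JAG1 and JAG2. Tpi1 had 11.76, 11.74 and 11.83 in the first 3 lines and 10.71, 11.09 and 11.12 in the other 3, and Ldha had 12.19, 12.39 and 12.68 in the first 3 and 11.63, 11.69 and 11.93 in the others. Pfkl had 11.27, 11.31 and 10.97 in the first 3 lines and 10.45, 10.55 and 10.61 in the other 3. The gap was narrow for Slc2a3, at 11.80 or more in the first 3 lines and at most 11.77 in the others. PAN1 and PUM3 are heterozygous and B12 is null, so the division crossed the genotypes. In 2i/LIF the 6 lines lay between 10.77 and 11.15 for Slc2a1, and PAN1, PUM3 and B12 were the 3 lowest (10.85, 10.77 and 11.05). For Aldoc the same 3 lines stayed highest there, at 6.91, 6.95 and 6.41, against 6.20, 5.94 and 6.14 in CHE4, JAG1 and JAG2. B12 was the lowest line in 2i/LIF for Pdk1, Pfkl, Tpi1, Pkm and Ldha, and PAN1 and PUM3 were lowest for Slc2a3. The fibroblast list had medians of 6.24, 6.24 and 6.24 in PAN1, PUM3 and B12 in serum and 6.42, 5.92 and 6.35 in CHE4, JAG1 and JAG2.

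**Figure D3:**
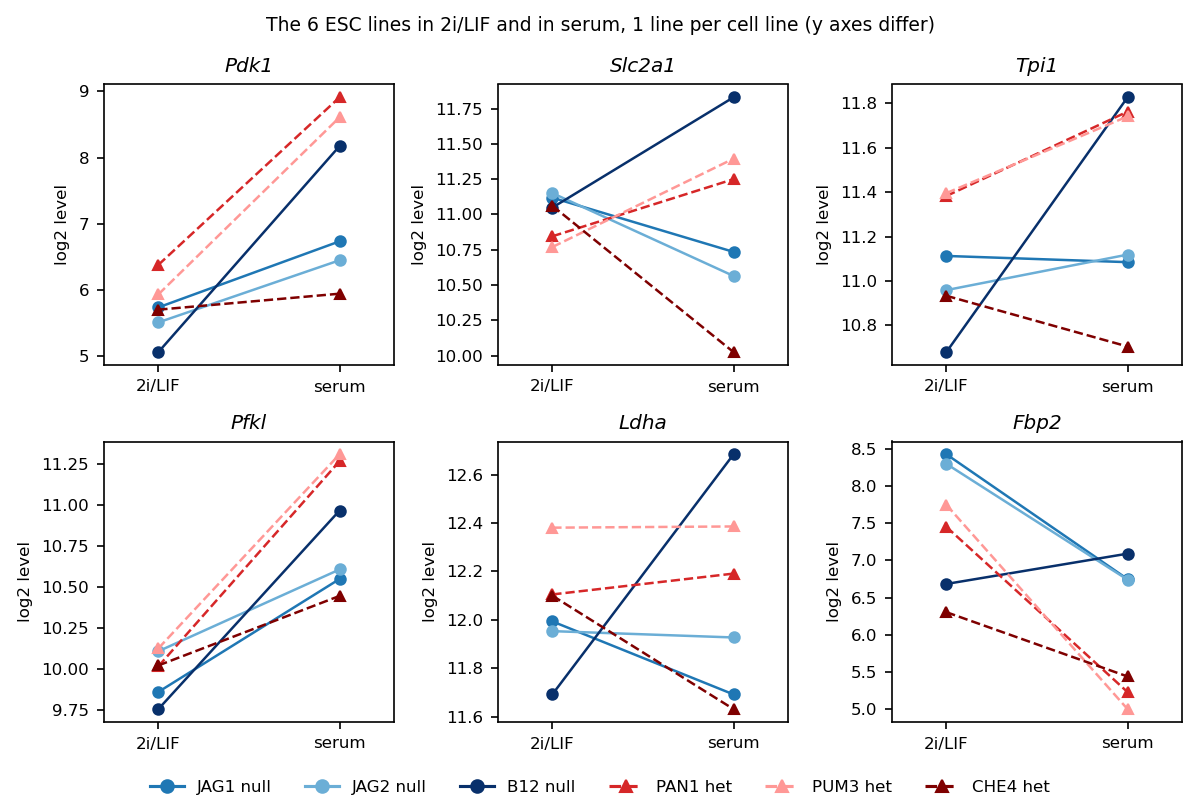
Normalized log2 levels of 6 genes in the 6 ESC lines in 2i/LIF (left) and in serum (right), with 1 line per cell line, solid for null and dashed for heterozygous; y axes differ. PAN1, PUM3 and B12 stand above the other 3 lines in serum for Pdk1, Slc2a1, Tpi1, Pfkl and Ldha, and Fbp2 is higher in 2i/LIF in every line but B12.

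Pgam2 fell by 0.98 (SE 0.16, adjusted p = 0.000299) and was detected on 1 of 6 arrays in 2i/LIF, against 6 of 6 in serum. Pfkl fell by 0.90 (SE 0.16, adjusted p = 0.000574), with 9.75, 10.02 and 10.13 as lowest, median and highest in 2i/LIF and 10.45, 10.79 and 11.31 in serum. Aldoa, the main aldolase, fell by 0.63 (SE 0.11, adjusted p = 0.000374), and was lower in 6 of 6 lines. Dlat rose by 0.92 (SE 0.15, adjusted p = 0.000345), and was detected on 6 of 6 arrays in 2i/LIF and 3 of 6 in serum, with no overlap. The non-overlapping genes were 5 of 25, against 22% of all probes.

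Fbp2, the muscle-type fructose-1,6-bisphosphatase, missed the threshold in this comparison (1.44, SE 0.44, adjusted p = 0.0154). Its levels in JAG1, JAG2, B12, PAN1, PUM3 and CHE4 were 8.43, 8.30, 6.68, 7.45, 7.75 and 6.30 in 2i/LIF, against 6.75, 6.74, 7.09, 5.23, 4.999 and 5.44 in serum. It was higher in 2i/LIF in 5 of 6 lines, by up to 2.73 in PUM3, and differed by -0.41 in B12. With cell line as a block Fbp2 was called (adjusted p = 0.00596), as was Pdk3, a pyruvate dehydrogenase kinase (-0.48, adjusted p = 0.00491, against 0.0641 without the block). Slc2a3, Pdhb and Dlat were higher and 8 genes lower in 2i/LIF in all 6 lines, or 3 and 8 of 25, against 22.4% and 19.8% of all probes. The fibroblast list moved in this comparison too: 16 of 17 tested genes were lower in 2i/LIF and 0 higher, with array medians of 4.56 to 4.66 in 2i/LIF and 5.92 to 6.42 in serum. Acta2 was detected on 0 of 6 arrays in 2i/LIF, at 4.30 to 4.47, and on 6 of 6 in serum, at 11.05 to 11.99, while Col1a1 was detected on 1 of 6 arrays in 2i/LIF and 6 of 6 in serum, and Col1a2 on 1 of 6 and 0 of 6. The part of fibroblast RNA in the 2i/LIF results was not tested.

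Among the state comparisons made here, epiSCs and ESCs in serum differed in the largest number of genes. Of 24 tested, 8 rose in epiSCs and 7 fell, or 62.5%, against 37.1% of 13856 probes (18.8% higher and 18.3% lower). The median change was 0.25 over the 24 genes and -0.01 over all probes. This comparison shares its epiSC arrays with that of rESCs and epiSCs, and its serum arrays with those of 2i/LIF and of rESCs against serum. Groups did not overlap for 11 of the 24 genes, 10 of them called, against 30.1% of all probes. Hk1, Ldhb and Slc16a3 were not tested. Neither epiSCs nor rESCs were compared with ESCs in 2i/LIF.

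The genes that rose included Slc2a1 at glucose entry and Ldha at the lactate end, but not every step between passed. Aldoa changed by 0.07 (adjusted p = 0.741), Pgk1 by 0.38 (0.16), Pgam1 by 0.41 (0.0269) and Pkm by -0.44 (0.0468). Slc2a1 had 12.38, 11.999, 12.42, 11.91 and 11.89 in epiSC lines BL2, BL6, BL3, BL4 and BL7, against 10.02, 10.99 and 11.83 as lowest, median and highest in serum ESCs (1.19, SE 0.28, adjusted p = 0.00344). Ldha, which makes lactate from pyruvate, had 13.21, 13.23, 13.30, 12.97 and 13.13 in the same epiSC lines, against 11.63, 12.06 and 12.68 in serum ESCs (1.12, SE 0.19, adjusted p = 0.000363). Tpi1 had 12.71, 12.54, 12.94, 12.36 and 12.76 in epiSCs, against 10.71, 11.43 and 11.83 in serum ESCs (1.35, SE 0.21, adjusted p = 0.000213). For each of the 3 genes all epiSC arrays lay above all serum arrays.

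Aldoc, the brain-type aldolase, changed most in this direction. It had 8.75, 8.71, 8.79, 7.65 and 8.60 in epiSC lines BL2, BL6, BL3, BL4 and BL7, against 5.96, 6.49 and 7.21 as lowest, median and highest in serum ESCs (1.96, SE 0.24, adjusted p = 3.83e-05). In rESCs it was divided, at 8.34 and 8.15 in BL2 and BL3 but 6.19, 6.70 and 6.34 in J2.3, BL6 and BL7. Eno3 had 7.89, 7.60, 7.72, 7.44 and 7.26 in the same epiSC lines, against 5.58, 6.53 and 7.34 in serum ESCs (1.09, SE 0.28, adjusted p = 0.00579). The ranges touched in 1 epiSC line, BL7, and the call was lost in 10 of 22 alternatives. Pfkl rose by 0.97 (adjusted p = 0.00196), Pfkfb4 by 0.64 (0.0019) and Dlat by 0.98 (0.00035), Dlat without overlap.

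The 7 genes that fell in epiSCs were Pfkp, Pgam2, Fbp2, Pfkfb2, Pdha1, Pdhb and Pdk3. Pfkp, with the epiSC levels given above, had 8.51, 9.15 and 9.40 as lowest, median and highest in serum ESCs, so that only BL6 epiSCs reached the serum range (-1.998, SE 0.36, adjusted p = 0.000508, or -2.38 without BL6). Its second probe changed by -1.92 (adjusted p = 0.000335). Pgam2 fell by 1.09 (SE 0.16, adjusted p = 0.000159), with epiSC arrays at 4.36 to 4.99 against 5.47, 5.82 and 6.17 as lowest, median and highest in serum ESCs. Fbp2 was detected on 0 of 5 epiSC arrays (4.37, 4.54, 4.62, 4.48 and 4.54 in BL2, BL6, BL3, BL4 and BL7), against 5 of 6 serum arrays, and was at least 1.92-fold lower (adjusted p = 0.00313), where the bound sets the serum mean against the lowest signal counted as detected on the epiSC arrays. It was detected on enough arrays to be tested only through the serum group, and missed the threshold with no filter on dim probes.

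Pdha1 fell by 0.98 (SE 0.14, adjusted p = 9.4e-05), with epiSC arrays at 9.88 to 10.10 and serum arrays at 10.62 to 11.27, and Pdhb by 0.75 (adjusted p = 0.0016). E1 subunits thus fell where the E2 subunit Dlat rose. Pdk3 fell by 0.73 (adjusted p = 0.00482) and Pfkfb2, a partner of Pfkfb4 in the same role, by 0.68 (adjusted p = 0.00488). Without BL6 epiSCs 13 genes were called, Pgam2 changed by -1.18 and Pdha1 by -0.999, while Eno3 (adjusted p = 0.011) and Pfkfb2 (0.0124) missed the threshold. The share of all probes called without BL6 is not given here. Of 19 fibroblast genes tested, 3 were higher and 11 lower in epiSCs, with array medians of 5.61 to 6.84 in epiSCs and 5.92 to 6.42 in serum ESCs, and Acta2 at 10.16 to 11.06 in epiSCs and 11.05 to 11.99 in serum ESCs, and their part was not tested.

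**Figure D4:**
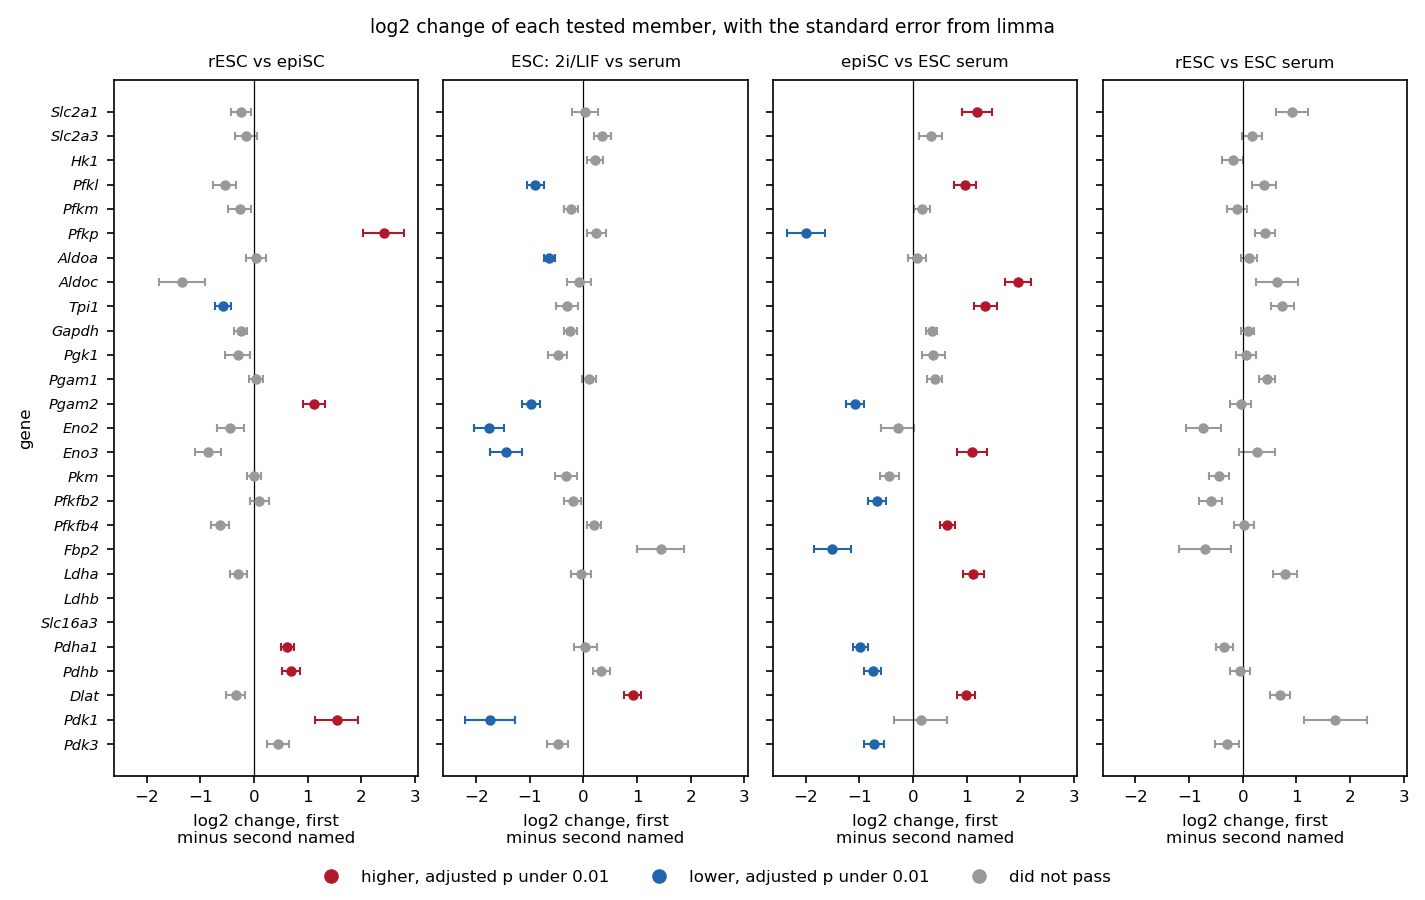
log2 change of each tested gene in 4 comparisons (first named state minus second), with limma's standard error as a bar, in red or blue where the adjusted p was under 0.01. Pfkp lies at 2.42 in rESCs against epiSCs and at -1.998 in epiSCs against serum ESCs, and no gene is coloured in rESCs against serum ESCs.

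rESCs were compared with ESCs in serum, both kept with serum and LIF. These states share no cell line, so a difference by state cannot be told apart from one between lines. With limma 0 of 25 genes tested passed, and 0.193% of 13495 probes did (0.0519% higher and 0.141% lower). At an unadjusted p under 0.05 there were 11 of the 25, against 26.2% of all probes. The nearest were Dlat (0.70, SE 0.19, adjusted p = 0.0518), Ldha (0.79, SE 0.22, 0.0574) and Tpi1 (0.73, SE 0.21, 0.0625). Tpi1 was the 1 gene whose groups did not overlap, at 11.89 to 12.31 in rESCs and 10.71 to 11.83 in serum ESCs, against 4.32% of all probes. Its epiSC levels, 12.36 to 12.94, lay above both.

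The largest difference was that of Pdk1, at 1.73, but with an SE of 0.59 and an adjusted p of 0.0939. Slc2a1 differed by 0.91 (SE 0.30, adjusted p = 0.0833). Without J2.3 rESCs these differences were 2.11 (adjusted p = 0.0447) and 0.74 (0.127), those of Dlat, Ldha and Tpi1 were 0.61, 0.71 and 0.74, and 0 genes passed. For both, serum ESCs spread more widely than rESCs or 2i/LIF ESCs, as described for PAN1, PUM3 and B12: the 3 highest serum levels of Pdk1, 8.91, 8.61 and 8.17, lay inside the rESC range of 7.66 to 9.92. Pfkp, which rose on reversion, differed by 0.42 (SE 0.18, adjusted p = 0.162), and Pgam2 by -0.04 (SE 0.19, 0.926). Fitted together with all 22 arrays, Ldha passed (0.77, adjusted p = 0.00739), a gene named after its value was seen.

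Gapdh, glyceraldehyde-3-phosphate dehydrogenase, was the reference gene for the qRT-PCR of the study. Its level was 12.46 to 12.88 in rESCs, 12.74 to 13.08 in epiSCs, 12.13 to 12.65 in 2i/LIF and 12.37 to 12.72 in serum. It differed by -0.25 in rESCs against epiSCs (SE 0.12, adjusted p = 0.144), by -0.24 in 2i/LIF against serum (SE 0.11, 0.0967), and by 0.09 in rESCs against serum ESCs (SE 0.12, 0.663). Between epiSCs and serum ESCs the difference was 0.34 (SE 0.11, adjusted p = 0.0204) and the groups did not overlap. It did not pass there, but did in 4 of 22 alternative settings. Within lines Gapdh was lower as rESC than as epiSC in 4 of 4, and lower in 2i/LIF than in serum in 6 of 6. Gapdh has processed copies in the mouse genome, and cross-hybridization was not tested.

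Genes with more than 1 named probe did not always follow the brightest. For Pgk1, the X-linked phosphoglycerate kinase, the brightest probe changed by -0.30 in rESCs against epiSCs (adjusted p = 0.349) and 0.38 in epiSCs against serum ESCs (0.16). A dimmer Pgk1 probe changed by 1.12 (adjusted p = 0.0036) and -1.07 (0.000707), the opposite signs. The dimmest of 3 Tpi1 probes rose by 0.68 in 2i/LIF against serum (adjusted p = 0.000533), where the others changed by -0.30 (0.249) and -0.40 (0.0542). Second Pfkp and Pdhb probes had the sign of the brightest probe in epiSCs against serum ESCs, at -1.92 and -1.33. In 2i/LIF against serum the Pdhb probes were split. The brightest changed by 0.33 (adjusted p = 0.0947), the second by -0.42 (0.0923) and the dimmest by 0.76 (0.0657).

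Pgk1, Pdha1 and Pdk3 are X-linked, so the sex chromosome genes are given beside them. Xist, which silences 1 X chromosome, was detected on 1 of 5 rESC arrays (J2.3, 6.61), 2 of 5 epiSC arrays (BL7, 8.47, and BL4, 5.98), 0 of 6 arrays in 2i/LIF and 3 of 6 in serum, where JAG1, JAG2 and B12 had 6.10, 6.41 and 5.41. The Y-linked Eif2s3y reached 5.75 to 8.15 in rESC lines BL3, BL2 and BL6, 5.94 to 7.84 in epiSC lines BL3, BL4, BL2 and BL6, and 8.36 and 7.63 in PAN1 in 2i/LIF and in serum. Kdm5d and Uty, also Y-linked, were dim and did not follow it throughout. Kdm5d was detected on 2 of 5 epiSC arrays and on 0 rESC or ESC arrays. Uty was detected on 2 of 6 arrays in 2i/LIF, where PAN1 (5.46) and CHE4 (5.11) were highest, and on 0 rESC, epiSC or serum arrays. Pdha1 was 10.05 in BL7 epiSCs, the array with the highest Xist, inside the range of the other epiSC lines (9.88 to 10.10). In PAN1 it was 10.32 in 2i/LIF and 10.62 in serum, the lowest level in each medium, but PUM3, with Eif2s3y at 4.51 and 4.34, was close, at 10.53 and 10.72. The other 4 ESC lines, also without detected Eif2s3y, had 11.24 to 11.50 in 2i/LIF and 11.05 to 11.27 in serum. How far X dosage bears on these genes was not tested.

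Null and heterozygous lines were compared in each state, since the study asks whether loss of Blimp1 alters pluripotent cells. In ESCs in serum, ESCs in 2i/LIF and rESCs 0 genes passed, of 25, 24 and 26 tested, and 0% of all probes did. In epiSCs 0 of 22 genes passed, and 0.404% of 14355 probes. Over all states, with cell line as a random block, 0 of 25 genes and 0% of probes passed, and 0% also in the tests of whether changes between states differed by genotype. At an unadjusted p under 0.05 there were 1 gene in serum (4.49% of all probes), 3 in 2i/LIF (5.48%), 1 in epiSCs (16.1%), 1 in rESCs (4.82%) and 3 over all states (7.67%). Between genotypes, the change of rESCs against epiSCs differed at that level for 1 of 23 genes (1.98% of probes) and the change of 2i/LIF against serum for 0 of 25 (3.45%).

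The gene with the smallest p was Fbp2 in serum. Its levels were 6.75, 6.74 and 7.09 in the null lines JAG1, JAG2 and B12, against 5.23, 4.999 and 5.44 in the heterozygous lines PAN1, PUM3 and CHE4. The genotypes did not overlap, with a difference of 1.60 (SE 0.20, unadjusted p = 4.81e-05, limma adjusted p = 0.217). In 2i/LIF the null lines had 8.43, 8.30 and 6.68 and the heterozygous lines 7.45, 7.75 and 6.30, which overlapped. In rESCs, Fbp2 was detected in the null line J2.3 (6.33) and the heterozygous line BL7 (6.29) and not in BL2, BL6 or BL3.

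Pkm, pyruvate kinase, had 11.54, 11.61 and 11.44 in the null lines JAG1, JAG2 and B12 in 2i/LIF, against 12.27, 12.35 and 12.13 in the heterozygous lines PAN1, PUM3 and CHE4 (-0.69, SE 0.14, unadjusted p = 0.00103, limma adjusted p = 0.726). In serum the same null lines had 11.89, 11.87 and 12.17 and the heterozygous lines 12.64, 12.64 and 12.06. The genotypes were apart in 2i/LIF and overlapped in serum. Pfkp in epiSCs had 7.21 and 8.59 in the null lines BL2 and BL6, against 6.76, 5.91 and 6.79 in BL3, BL4 and BL7 (1.37, SE 0.42, unadjusted p = 0.0124, limma adjusted p = 0.156). BL6 is the epiSC array with high Esrrb. The difference between genotypes in the change of Pfkp from epiSC to rESC was -1.39 (SE 0.58, unadjusted p = 0.0366, limma adjusted p = 0.998). Pgk1 in rESCs differed by -0.56 (unadjusted p = 0.0418), and Pdha1 and Pdk1 in 2i/LIF by 0.67 (0.0229) and -0.57 (0.0437).

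MEFs, with 1 array and so no test, are given beside the range of the 22 pluripotent arrays. Slc2a3, the high-affinity glucose carrier known from neurons and early embryos, was at 6.77 in MEFs, against 11.42, 11.98 and 12.55 as lowest, median and highest in pluripotent cells, or 37.1-fold below the median. It was the widest gap among the 27 genes, for a gene whose state means in pluripotent cells differed by 0.34. MEFs lay below all 22 arrays for 6 genes and above all for 1, against 17.8% and 17.8% of 20157 probes. The others below were Aldoc (not detected, 4.81 against 5.94 to 8.79), Pdhb (7.36 against 8.08 to 9.72), Pgk1 (9.82 against 10.05 to 11.999), Pgam1 (8.40 against 8.54 to 9.40) and Aldoa (10.83 against 10.92 to 12.15). Eno2 was above, at 8.38 against 4.83 to 7.93. The median difference from pluripotent cells was -0.31 over the genes and -0.06 over all probes. Pdk1 was 6.48 in MEFs, below every rESC and epiSC array, above every array in 2i/LIF (5.06 to 6.38) and inside the serum ESC range (5.95 to 8.91). Eno3 was 7.69 in MEFs, above the serum ESC range of 5.58 to 7.34 and inside the epiSC range of 7.26 to 7.89. Acta2 was 14.51 in MEFs.

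**Figure D5:**
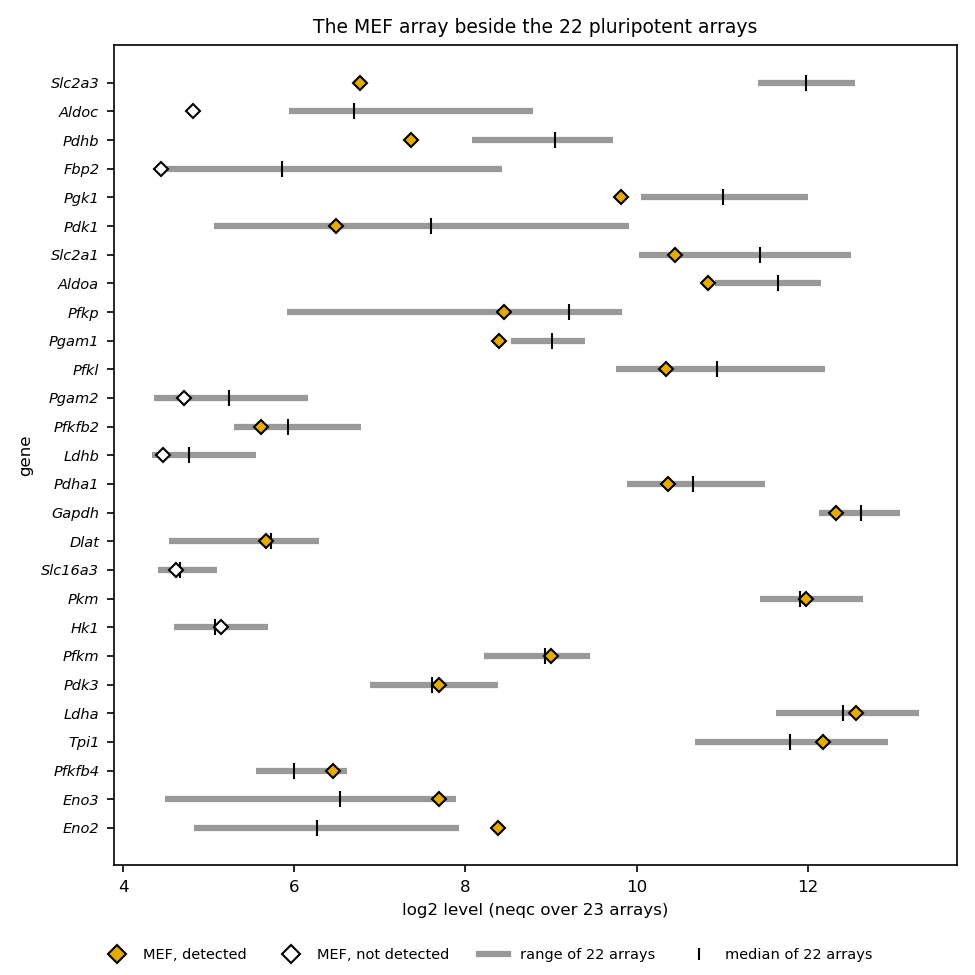
Normalized log2 level of the 27 genes in the MEF array (diamond, open where not detected), with the range of the 22 pluripotent arrays as a bar and their median as a tick, ordered by the difference. Slc2a3 in MEFs lies at 6.77, far below its pluripotent range of 11.42 to 12.55, and Eno2 lies above its range.

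Neighbouring pathways were read from lists in the same fits, to be set against the 23.2%, 31.1% and 37.1% of all probes called in these comparisons. Of other isozymes and carriers of the same steps, 0 of 5 tested passed in rESCs against epiSCs, 2 of 6 fell in 2i/LIF against serum (Pgm1, -1.60, and Ldhc, -0.89), and in epiSCs against serum ESCs 1 of 5 rose (Pgm1, 1.77) and 3 fell (Ldhc, -1.66, Adpgk, -1.04, and Slc2a8, -0.68). Pgm1 is listed as a phosphoglucomutase, which links glycogen to glycolysis, and Adpgk is an ADP-dependent glucokinase. Of other genes that bring pyruvate to mitochondria, Pdk4, a further pyruvate dehydrogenase kinase, rose in rESCs against epiSCs (1.07, adjusted p = 0.000337) and fell in 2i/LIF against serum (-1.49, 9.83e-06), as Pdk1 did. In epiSCs against serum ESCs Pdk4 fell by 1.40 (adjusted p = 3.11e-05), where Pdk1 changed by 0.14 (0.83). Pdp2, a phosphatase that undoes the kinases, changed by -0.57 in rESCs against epiSCs (adjusted p = 0.00657) and by 1.22 in 2i/LIF against serum (2.92e-05). The other 4 genes of this list tested in 2i/LIF did not pass.

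The tricarboxylic acid cycle and the pentose phosphate pathway were read beside shares of 23.2%, 31.1% and 37.1% of all probes called in rESCs against epiSCs, 2i/LIF against serum and epiSCs against serum ESCs. Of 15 cycle genes tested, 0 passed in rESCs against epiSCs, 3 in 2i/LIF against serum (Mdh1, 0.58, Dlst, -0.59, and Ogdh, -0.47) and 2 in epiSCs against serum ESCs (Idh3a, 0.47, and Idh3g, -0.61). Of pentose phosphate genes, Pgls changed by -0.79 in rESCs against epiSCs, 1 of 8 tested, by 0.67 in epiSCs against serum ESCs, where Taldo1 fell by 0.45, and 0 of 7 passed in 2i/LIF against serum. In rESCs against serum ESCs 0 passed in any of these lists.

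HIF targets outside glycolysis were read as well, 12 of them tested in each comparison. In 2i/LIF against serum 6 fell and 1 rose, where 15.4% of all probes fell and 15.7% rose, with a median of -0.59 against 0.03 over all probes, led by P4ha2 (-2.02), Ddit4 (-1.60) and P4ha1 (-0.87), and by Kdm3a, which rose by 1.33. In epiSCs against serum ESCs 3 rose and 1 fell (18.8% and 18.3% of all probes), with Bnip3l at 1.59, Egln3 at 1.38 and Arnt, the partner subunit of HIF, at -0.74. In rESCs against epiSCs 1 rose and 2 fell, against 10.6% and 12.5% of all probes (Kdm3a, 0.73, Bnip3l, -0.98, and Ddit4, -0.86), and against serum ESCs 0 passed. P4ha1 and P4ha2 encode collagen prolyl hydroxylases, which fibroblasts also use, and the fibroblast list moved in the 2i/LIF comparison as given above.

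Of 17 regulators tied to these genes, 3 of 11 tested rose and 1 fell in rESCs against epiSCs, 3 of 12 rose and 3 fell in 2i/LIF against serum, 1 of 11 rose and 3 fell in epiSCs against serum ESCs, and 0 of 12 passed in rESCs against serum ESCs, where 23.2%, 31.1%, 37.1% and 0.193% of all probes were called. Mycl1, of the Myc family, fell by 1.80 in rESCs against epiSCs (adjusted p = 3.7e-06), rose by 1.05 in 2i/LIF against serum (3.62e-05) and rose by 1.66 in epiSCs against serum ESCs (1.24e-06). Myc itself was detected on 1 of 5 rESC, 0 of 5 epiSC, 0 of 6 2i/LIF and 1 of 6 serum arrays, so that it could not be compared here. Txnip, which restrains glucose uptake, fell by 1.07 in 2i/LIF against serum (adjusted p = 0.000443). Its relative Arrdc4 rose by 0.95 in rESCs against epiSCs (0.00253), and fell by 0.51 in 2i/LIF against serum (0.00607) and by 0.95 in epiSCs against serum ESCs (0.0006). The naive pluripotency factors Esrrb and Tfcp2l1 were on this list too, and changed by 5.01 and 3.68 in rESCs against epiSCs, by 0.73 and 1.46 in 2i/LIF against serum and by -4.65 and -3.64 in epiSCs against serum ESCs. Hif1a did not pass in any of the 4 comparisons. Its levels were 6.95 to 7.44 in rESCs, 6.35 to 6.96 in epiSCs, 6.39 to 7.12 in 2i/LIF and 6.96 to 7.69 in serum.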

How the data were processed

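RNA of 23 samples was read on Illumina mouse whole-genome BeadChips. The deposited signals are linear bead intensities of 45281 probes, with no background subtraction or normalization by the authors, and a detection p-value is deposited beside each. The authors also deposited log2 values made with lumi by variance stabilization and quantile normalization, used only as an alternative. For the scanner software and lumi, versions were not given in the sources used here. A further 2 columns of the deposited table were not used in any step.

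Intensities were background-corrected and quantile-normalized with neqc of limma 3.58.1 (R 4.3.3, offset 16), separately for each comparison. Levels per array come from all 23 arrays normalized jointly. For these genes the 2 versions of a state difference lay within 0.0589 on the log2 scale. A probe was tested if the number of arrays detecting it (p under 0.01) reached the size of the smaller group. Detection in the higher group alone was enough for Fbp2 in epiSCs against serum ESCs, and for Pgam2 wherever it was called. The lower group alone also held too few detecting arrays for Dlat in epiSCs against serum ESCs. Of genes called in 2i/LIF against serum, with or without the block, the same held for Dlat, Eno2, Eno3, Pdk1 and Fbp2. For these the filter leaned on the difference that was tested. lmFit and eBayes gave two-sided tests, with a threshold of 0.01 for p adjusted by Benjamini-Hochberg over all probes tested. statmod 1.5.0 gave the correlation within lines. The limma fit was also run on simulated normalized values with independent noise for each array. This covers neither the normalization nor outlying arrays nor lines shared between states. Cell lines recur between states according to the labels. Deviations of a line from its state means correlated at 0.52 (BL2), 0.45 (BL3), 0.26 (BL7) and -0.18 (BL6) between rESCs and epiSCs, and at 0.12 to 0.45 in the 6 ESC lines, so cell line as a block was an alternative fit.

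All genes of the list with a named probe are accounted for. Those called are named with values. Those with a change of 1 or more are given with the value of each array or with the lowest, median and highest of a group. Of the other lists up to 4 called genes per comparison are named. The genes and lists were chosen with earlier results of these data known. Alternatives were the authors' values, no background correction, a joint fit of all 22 pluripotent arrays, other filters on dim probes, an intensity trend, genotype as covariate, the mean of a gene's probes, a threshold of 0.05 and leaving out each array.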

Additional observations from a re-analysis of the deposited data

Results flagged for a closer look

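In 100 groups of 5 or 6 arrays, 1 gene in 1 state each, 3 held an array far from the others by Dixon's criterion, which chance meets in about 1 of 20 groups. Pfkp in 2i/LIF was 8.68 in line PAN1, where the nearest of the other lines had 9.31. Aldoc in epiSCs was 7.65 in line BL4, where the nearest had 8.60. Pgam1 in serum ESCs was 9.20 in line B12, where the nearest had 8.79.

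Pdha1 moved in opposite directions with the medium in the 2 genotypes. In 2i/LIF against serum it was higher in all null lines (mean 0.24) and lower in all heterozygous lines (mean -0.17), a difference of 0.42, but the interaction term gave an unadjusted p of 0.241 and a limma adjusted p of 0.998. The smallest changes were 0.05 in JAG2 and -0.03 in CHE4. Pdha1 is X-linked, and Xist was detected in serum in every null line (JAG1 6.10, JAG2 6.41, B12 5.41) and in no heterozygous line. Genotype and Xist status therefore cannot be told apart here.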

How the results depend on the processing

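Over 32 results for single genes and 698 alternatives, 611 kept their direction and side of the threshold, 83 missed the threshold, 4 newly passed it and 0 changed sign, and 18 results were unaffected by every alternative. With no filter on dim probes 3 genes were called in rESCs against epiSCs in place of 6 (Pfkp, Pgam2 and Pdha1). Leaving out 1 array at a time gave 3 to 7 calls there, with 3 for each of BL3, BL7 and BL2 epiSCs and BL3, BL7 and BL6 rESCs, 6 to 7 in 2i/LIF against serum, 11 to 15 in epiSCs against serum ESCs and 0 in rESCs against serum ESCs. All 22 arrays fitted together gave 1 call in rESCs against serum ESCs. Without J2.3 rESCs and BL6 epiSCs, chosen after seeing the data, 6 genes were called in rESCs against epiSCs, with Pfkfb4 (adjusted p = 0.00113) in place of Tpi1 (0.0142). The share of all probes called in that fit is not given here.

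With the replicate block, where cell line pairs the arrays, 7 genes were called in rESCs against epiSCs and 9 in 2i/LIF against serum. The shares of all probes called in these paired fits are not given here. The replicate number as a block gave 9 calls in epiSCs against serum ESCs in place of 15, 4 higher and 5 lower, but these states share numbers and no lines. It gave 0 in rESCs against serum ESCs, and the blocked fits between genotypes called 0 genes. Chip as a block was not run, as the headers give no chip. Over all probes, rESCs against serum ESCs gave 26 calls, but 705 with all 22 arrays fitted together, 663 at a threshold of 0.05, 92 without J2.3 rESCs, 9 with genotype as covariate, 5 with no filter, 0 with the replicate number as a block and 3 to 494 without 1 array. The 0.05 threshold gave 5005 in place of 3108 in rESCs against epiSCs, and taking the mean of a gene's probes, which leaves fewer features, gave 2719 in place of 4125 in 2i/LIF against serum and 3343 in place of 5139 in epiSCs against serum ESCs, where the block gave 3415. Null against heterozygous epiSCs gave 58, but 0 with the authors' values, with no filter, with the block or without any 1 array, and 515 at 0.05. Dim probes such as Pgam2, Dlat and Fbp2 lie close to background, which limits their changes.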
